A study of Mus musculus with 24 samples.

Results

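The genes of the proteasome, the protease complex that degrades ubiquitin-tagged proteins, were followed in whole mouse hearts. A gene was taken where its symbol began with Psma, Psmb, Psmc, Psmd, Psme, Psmf or Psmg and a digit, and 50 of the 24239 genes in the table met this rule after 1 pseudogene row was left out. They comprised 14 subunits of the constitutive core, 3 immunoproteasome subunits, 17 subunits of the cap, 5 activators, 1 inhibitor, 7 assembly chaperones, the testis form *Psma8*, and 2 genes that carry the name without being subunits (*Psmc3ip*, a meiotic recombination factor, and *Psme3ip1*, which encodes a partner of the activator PSME3). The thymus subunit *Psmb11* had no row. The 24 hearts, all from male mice, fell into 4 groups of 6: cSirt5KO TAC, Control TAC, cSirt5KO Sham and Control Sham. The cSirt5KO mice lacked the deacylase gene *Sirt5* in cardiomyocytes through a *Myh6-cre* transgene, and Control mice were of the same *Sirt5* line, held on a C57BL6J background, but lacked Cre, and what Cre does by itself cannot be told apart from the loss of *Sirt5*. The age of the mice is not given in the sources used here. Transverse aortic constriction (TAC), which imposes pressure overload on the left ventricle, or Sham surgery preceded tissue collection by 12 weeks. RNA came from the whole heart, in which endothelial cells, fibroblasts and leukocytes keep *Sirt5*, and in such bulk samples fewer cells of a type and less RNA per cell cannot be told apart.

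The proteasome core is a barrel of alpha and beta rings. The alpha rings gate the entrance, and the beta rings hold the proteolytic sites of *Psmb5* (chymotrypsin-like), *Psmb6* (caspase-like) and *Psmb7* (trypsin-like). In immune cells and under interferon gamma, *Psmb8*, *Psmb9* and *Psmb10* take the places of *Psmb5*, *Psmb6* and *Psmb7*, and the cap, the PSME1-PSME2 ring or PSME4 open the gate from outside. In cardiomyocytes the proteasome turns over sarcomere and damaged proteins.

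The stretches upstream of 3 catalytic genes are shown because interferon and oxidative stress can act on genes of this family through short promoter motifs. Only genes with a match are shown, and whether the motifs act in these hearts was not tested. Of the 50 genes, 42 matched the RefSeq promoter table (GRCm38.p6), with 46 windows among 32851, and the 250 bases before each start were searched on both strands. The antioxidant response element core TGACNNNGC, the kind of site that NRF1 (encoded by *Nfe2l1*) and NRF2 bind, was found in 5 member windows (*Psmb5*, *Psmb6*, *Psmc6*, *Psmd9* and *Psmd12*) and in 10.2% of all windows. The gamma-activated site core TTCNNNGAA was found for 2 members (*Psmb8* and *Psmg1*) and in 7.02% of all windows, the interferon-stimulated response element core (GAAA, 2 bases of any kind, GAAA) for 3 (*Psmb3*, *Psmd4* and *Psmd9*) and in 2.98%, and the CCAAT box CCAAT for 15 and in 33.9%. Capitals mark the motif, which began 97 bases before the start of *Psmb8* (chr17:34197945-34198194, plus strand, TTCNNNGAA), 47 before that of *Psmb5* (chr14:54617996-54618245, minus strand, TGACNNNGC) and 9 before that of *Psmb6* (chr11:70525107-70525356, plus strand, TGACNNNGC).
Psmb8: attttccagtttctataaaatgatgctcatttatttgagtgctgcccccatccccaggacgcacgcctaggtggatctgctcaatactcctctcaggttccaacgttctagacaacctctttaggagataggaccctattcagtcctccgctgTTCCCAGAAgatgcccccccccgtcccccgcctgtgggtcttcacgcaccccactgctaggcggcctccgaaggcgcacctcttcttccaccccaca
Psmb5: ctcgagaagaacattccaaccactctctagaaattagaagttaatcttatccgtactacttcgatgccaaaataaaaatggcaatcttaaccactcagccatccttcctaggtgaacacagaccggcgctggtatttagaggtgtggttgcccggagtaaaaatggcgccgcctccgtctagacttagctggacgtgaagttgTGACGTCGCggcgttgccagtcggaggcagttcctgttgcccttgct
Psmb6: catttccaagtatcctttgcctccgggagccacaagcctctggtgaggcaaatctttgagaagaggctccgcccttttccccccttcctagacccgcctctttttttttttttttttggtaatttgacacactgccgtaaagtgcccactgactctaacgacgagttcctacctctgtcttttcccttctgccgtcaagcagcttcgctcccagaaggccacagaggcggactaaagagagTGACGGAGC

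Libraries held 22523629 to 35834826 reads assigned to genes. *Sirt5* itself was at 95.8 to 886 normalized counts in cSirt5KO TAC hearts, 565 to 796 in Control TAC hearts, 85.6 to 259 in cSirt5KO Sham hearts, and 388 to 807 in Control Sham hearts. The library labelled cSirt5KO TAC replicate 2 (886) lay above both Control groups and the library labelled cSirt5KO TAC replicate 4 (499) lay inside the Control range, and their values go against the genotype label. Calls of the 50 genes that involve cSirt5KO TAC hearts are therefore also given without these libraries, named below as replicates 2 and 4. Calls of the other gene lists and of the cell type markers rest on all cSirt5KO TAC libraries, these included, and are not given without them. The libraries also fell into a pair of sets by the level of reads on the strand opposite to abundant genes, with 2 cSirt5KO TAC, 2 Control TAC, 4 cSirt5KO Sham and 2 Control Sham hearts in the first set and the other 14 in the second. Animal numbers were divided into 3 series, a new series being started where the gap to the next number exceeded 200. This cut was chosen here, and the series were spread unevenly over the groups. Over series 1, 2 and 3, Control Sham had 4, 2 and 0 hearts and cSirt5KO Sham 0, 2 and 4. Control TAC had 4, 0 and 2, and cSirt5KO TAC 2, 4 and 0. Only series 2 held Sham hearts of both genotypes. The labels name neither the sets nor the series as a batch.

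A gene passed the test at an adjusted p under 0.1 in a limma model of log2(normalized count + 1) over all genes and all 24 hearts, and passed the stricter rule where it also changed by over 1.5-fold. In Control hearts TAC was followed by higher levels of 3 of the 50 genes (6.99% of all genes passed as higher) and lower levels of 1 (6.91% passed as lower), of which 1 met the stricter rule (7.03% of all genes in either direction). In cSirt5KO hearts TAC was followed by higher levels of 2 (0.573%) and lower levels of 0 (0.718%). The stricter rule was met by 0 in that comparison (0.672%), with limma, DESeq2 and edgeR alike, while 12 of the 50 had an unadjusted p under 0.05, against 11.4% of all genes. After Sham, 1 gene was higher (2.23%) and 1 lower (1.55%) in cSirt5KO than in Control hearts, and 1 met the stricter rule (2.03%). After TAC, 7 were higher (4.97%) and 1 lower (5.06%), and 1 met the stricter rule (3.25%). For genotype after TAC, with replicates 2 and 4 included, 24 of the 50 had an unadjusted limma p under 0.05 (20.1% of all genes). There were 8 such genes for TAC in Control hearts (21.5%) and 4 for genotype after Sham (16.1%). The difference of the TAC effect between genotypes passed for 0 members with limma (0.0949%), for 0 with edgeR and for 1 with DESeq2, and 5 of the 50 members, against 9.81% of all genes, had an unadjusted p under 0.05. Comparisons that share a group, such as TAC in Control hearts and genotype after TAC, rest on the same hearts and are given side by side only.

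**Figure D1:**
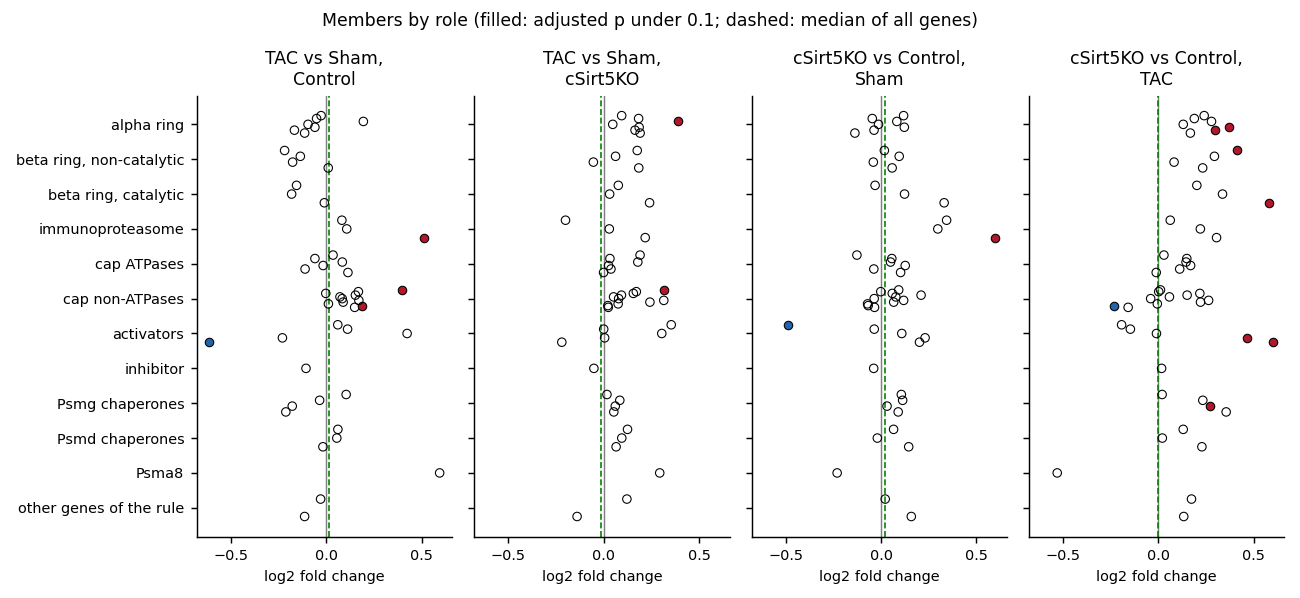
Log2 fold change of each of the 50 genes (1 point per gene) by role, in the 4 comparisons of 6 hearts with 6. Filled points passed at an adjusted p under 0.1 (red higher, blue lower), open points did not, and the dashed line is the median of all 24239 genes. After TAC, all 14 core genes lay to the right of 0 in cSirt5KO against Control hearts.

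Levels per kilobase of the canonical GENCODE vM39 transcript put the constitutive sites above their immune counterparts. *Psmb7* averaged 3615 normalized counts per kilobase over all hearts and *Psmb10* 919, *Psmb6* 2139 and *Psmb9* 143, and *Psmb5* 533 and *Psmb8* 248. The trypsin-like site *Psmb7* had the highest level per kilobase of the 50 genes, and testis-type *Psma8* the lowest, at 13.3. Some canonical transcripts carry long ends (6002 bases for *Psmb1*), so the order is approximate, and other comparisons below are within a gene.

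Among the immunoproteasome genes, *Psmb10* (chr8:106662367-106665076, GRCm39) stood apart. *Psmb10* had 1172, 1417 and 2177 in cSirt5KO TAC hearts, 1017, 1173 and 1419 in Control TAC hearts, 997, 1183 and 1651 in cSirt5KO Sham hearts, and 729, 816 and 931 in Control Sham hearts (normalized counts of the lowest, median and highest of 6 hearts, as in all such triplets). Every Control TAC heart and every cSirt5KO Sham heart lay above every Control Sham heart, and the cSirt5KO TAC group overlapped both Control TAC and cSirt5KO Sham hearts. In Control hearts *Psmb10* rose by 0.51 ± 0.13 after TAC (log2 fold change ± SE, n = 6 each, limma adjusted p = 0.00872), and in Sham hearts it was higher by 0.60 ± 0.13 in cSirt5KO than in Control hearts, or 1.52-fold (limma adjusted p = 0.0185). In cSirt5KO hearts the TAC difference was 0.22 ± 0.13 (limma adjusted p = 0.522), after TAC the genotype difference was 0.30 ± 0.13 (limma adjusted p = 0.167), and the difference between the TAC effects was -0.29 ± 0.18 (limma adjusted p = 0.628). The genotype difference after Sham was 0.46 within the first library set (limma adjusted p = 0.394), 0.94 within the second (adjusted p = 0.0206) and 0.50 with animal-number series in the model (adjusted p = 0.379). The TAC difference in Control hearts was 0.55 and 0.49 within the sets (limma adjusted p = 0.0538 and 0.0732).

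*Psmb8* (chr17:34416695-34420428) and *Psmb9* (chr17:34400961-34406738), neighbours in the major histocompatibility region, passed in none of the 5 comparisons. *Psmb8* had 346, 441 and 612 in cSirt5KO TAC hearts, 241, 392.6 and 567 in Control TAC hearts, 340.0, 444 and 599 in cSirt5KO Sham hearts, and 299, 326 and 480.3 in Control Sham hearts. *Psmb9* was the lowest of the 3, with 137, 195 and 267 in cSirt5KO TAC hearts, 120.3, 184 and 245 in Control TAC hearts, 159.8, 226 and 251 in cSirt5KO Sham hearts, and 105, 171 and 235 in Control Sham hearts. All 4 groups overlapped for both genes. The genotype difference after Sham was 0.30 ± 0.18 for *Psmb8* (limma adjusted p = 0.441) and 0.34 ± 0.19 for *Psmb9* (adjusted p = 0.392), both positive as for *Psmb10*. The other log2 differences of *Psmb8* were 0.11 for TAC in Control hearts, 0.03 for TAC in cSirt5KO hearts and 0.22 for genotype after TAC, and those of *Psmb9* were 0.08, -0.20 and 0.06 in the same order. An exon of *Psmb9* overlaps *Tap1* on the other strand.

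**Figure D2:**
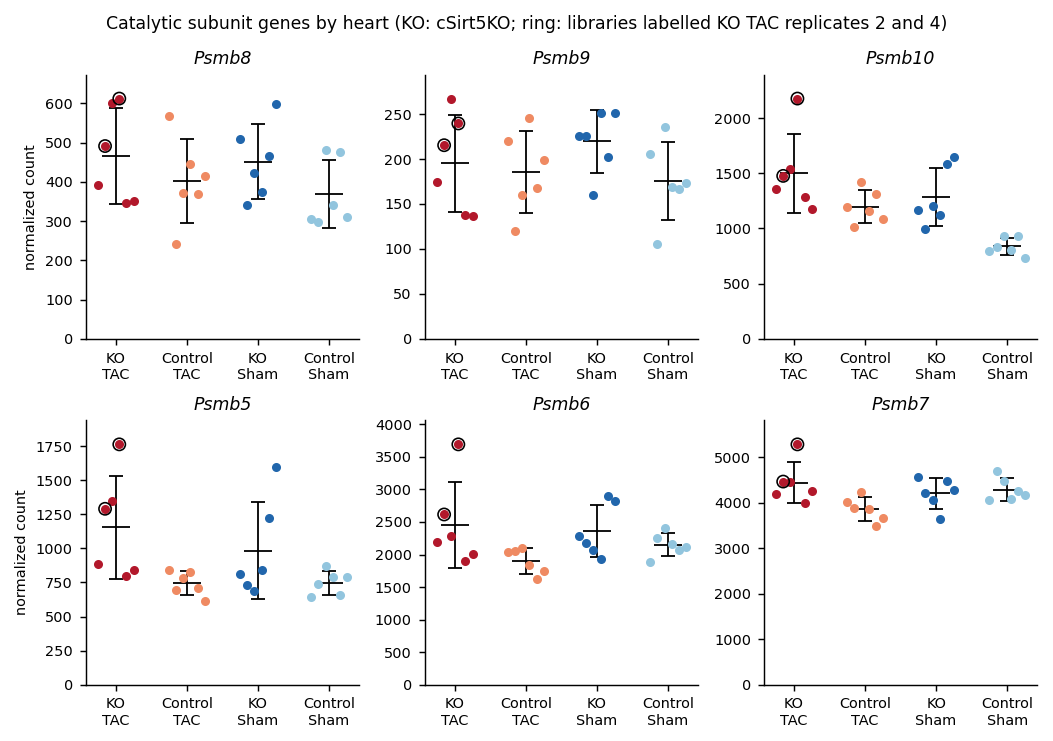
Normalized counts of the 3 immunoproteasome genes (upper row) and of the constitutive genes whose places they take (lower row) in each of 24 hearts, with the mean and SD of 6 hearts per group as bars. Rings mark the libraries labelled cSirt5KO TAC replicates 2 and 4, and *Psmb10* reached 2177 in replicate 4.

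The log2 ratio of each immune subunit to its constitutive counterpart was taken within a library, where the scaling between libraries has no part. *Psmb10* to *Psmb7* was -1.59 ± 0.19 in cSirt5KO TAC, -1.69 ± 0.18 in Control TAC, -1.73 ± 0.27 in cSirt5KO Sham and -2.36 ± 0.13 in Control Sham hearts (mean ± SD, n = 6). The Control TAC hearts, at -1.93 to -1.40, and the cSirt5KO Sham hearts, at -2.08 to -1.37, lay above the Control Sham hearts, at -2.51 to -2.19, with no overlap. The difference between the means was 0.67 for TAC in Control hearts and 0.63 for genotype after Sham, and it was 0.85 and 0.58 within the first and the second library set for TAC and 0.55 and 0.89 for genotype. These ratios were not tested. *Psmb8* to *Psmb5* and *Psmb9* to *Psmb6* overlapped between the groups in all 4 comparisons, and their mean differences ran between -0.36 (*Psmb8* to *Psmb5*, genotype after TAC) and 0.26 (*Psmb9* to *Psmb6*, TAC in Control hearts).

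**Figure D3:**
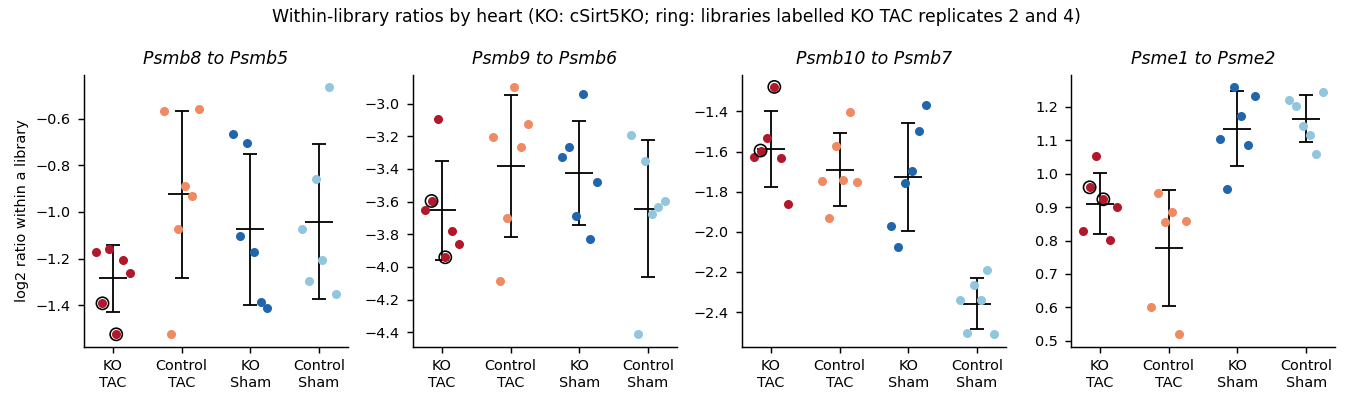
Log2 ratio of 2 genes within each library (y axis), in 6 hearts per group with mean and SD as bars and rings on the libraries labelled cSirt5KO TAC replicates 2 and 4. For *Psmb10* to *Psmb7* all hearts of the other 3 groups lay above the Control Sham hearts (-2.51 to -2.19), and for *Psme1* to *Psme2* the Control TAC hearts (0.52 to 0.94) lay below the Control Sham hearts (1.06 to 1.25).

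Macrophage markers passed in both comparisons in which *Psmb10* passed. Of 10 macrophage markers, 6 were higher after TAC in Control hearts, 5 were higher in cSirt5KO than in Control animals after Sham, 4 were higher in that contrast of genotypes after TAC, and 0 passed for TAC in cSirt5KO hearts by limma. Between genotypes 9 of the 10 were positive and 1 negative after either surgery, with a lowest value of -0.30 after Sham and -0.56 after TAC. The summed normalized counts of the macrophage markers ran over 8877 to 14218 in cSirt5KO TAC, 5564 to 11101 in Control TAC, 7390 to 12182 in cSirt5KO Sham and 4873 to 8093 in Control Sham hearts. Of 5 dendritic cell markers 3 were higher in cSirt5KO than in Control hearts after Sham, *Itgax* was higher in that contrast after TAC and *Flt3* was higher for TAC in Control hearts, with sums of 108 to 134, 31.1 to 101, 87.3 to 227 and 18.9 to 64.1 in the same group order. Of 10 T and NK cell markers *Cd3e* and *Nkg7* were higher in cSirt5KO than in Control hearts after Sham and *Cd3e* was lower for TAC in cSirt5KO hearts (-1.98, limma adjusted p = 0.0542), with sums of 40.5 to 71.5, 40.5 to 78.2, 55.2 to 127 and 32.6 to 59.8 counts in that order, and *Ncr1* and *Klrb1c* were at 0 in 10 hearts each. For genotype after Sham 8 of the 10 T and NK cell markers were positive and 2 negative, the lowest at -1.02. Of 4 B cell markers 0 passed by limma in the 4 comparisons. The part of these cells in the *Psmb10* difference was not tested.

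Genes that present the peptides cut by the proteasome, and genes of interferon signalling, passed in part of the same comparisons. Of 14 genes of MHC class I presentation, 3 were higher in cSirt5KO than in Control hearts after Sham, namely the class I heavy chains *H2-K1* (0.54, limma adjusted p = 0.0702) and *H2-D1* (0.41, adjusted p = 0.0676) and the loading factor *Tapbp* (0.27, adjusted p = 0.0643), with a list median of 0.35 against 0.02 for all genes. After TAC in Control hearts 1 was higher, the light chain *B2m* (0.37, limma adjusted p = 0.0788; list median 0.26 against 0.01), and after TAC 2 chaperones of the endoplasmic reticulum, *Calr* (0.34) and *Pdia3* (0.27), were higher in cSirt5KO than in Control hearts, where 9 of the 14 genes were negative and the list median was -0.05. For TAC in cSirt5KO hearts 11 of the 14 were negative, with a median of -0.13. Of 13 interferon signalling genes, *Ifit1* (0.88), *Ifit3* (0.74) and the receptor chain *Ifngr1* (0.52) rose and the other chain *Ifngr2* (-0.28) fell after TAC in Control hearts, and *Irf8* (0.55), a leukocyte transcription factor, was higher in cSirt5KO than in Control hearts after Sham. The interferon list had medians of 0.19 for TAC in Control hearts, against 0.01 for all genes, and of 0.07 for genotype after Sham, against 0.02. Neither list held a gene that passed for TAC in cSirt5KO hearts by limma.

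The 14 constitutive core genes lay on 1 side, by small amounts, in the comparison of genotypes after TAC. All 14 were positive, with a median log2 fold change of 0.26 against 0.00 for all genes, and 4 passed, namely the alpha ring subunits *Psma2* and *Psma3*, the beta ring subunit *Psmb4* and the chymotrypsin-like site *Psmb5*. TAC itself gave a median of -0.10 in Control hearts, with 2 of 14 positive, and of 0.17 in cSirt5KO hearts, with 13 of 14 positive, where the alpha ring subunit *Psma5* passed. All genes had medians of 0.01 and -0.01 in the same order. Genes with a mean of at least 100 and a canonical transcript under 2 kb had -0.07 and 0.05. The core median for TAC in cSirt5KO hearts was 0.02, with 9 of 14 positive, without replicates 2 and 4, and 0.04 and 0.06 within the library sets. After Sham the genotype median was 0.04 with 8 of 14 positive, and none passed. With replicates 2 and 4 included, the difference of the TAC effect between genotypes was positive for all 14, and none passed. Its median was 0.22, against -0.03 for all genes. For genes with a mean of at least 100 and a canonical transcript under 2 kb the median was 0.12. Hearts of the same group varied more in the core than in the cap, with a median SD over genes of 0.23 and 0.17 in cSirt5KO TAC, 0.13 and 0.09 in Control TAC, 0.18 and 0.14 in cSirt5KO Sham and 0.09 and 0.08 in Control Sham hearts on the log2 scale, and the 3 immunoproteasome genes had 0.29 to 0.37.

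*Psmb5* (chr14:54851576-54855479) had 798, 1086 and 1763 in cSirt5KO TAC hearts, 611, 743 and 841 in Control TAC hearts, 688, 826 and 1596 in cSirt5KO Sham hearts, and 643, 762 and 870.5 in Control Sham hearts. Both Control groups reached at most 870.5, and the highest value came from the library labelled cSirt5KO TAC replicate 4, whose *Sirt5* goes against that label. The genotype difference after TAC was 0.58 ± 0.18 (limma adjusted p = 0.0522), or 0.36 without replicates 2 and 4 (adjusted p = 0.375), and after Sham 0.33 ± 0.18 (adjusted p = 0.377). *Psmb4*, a non-catalytic beta subunit, had 2773, 3821 and 4676 in cSirt5KO TAC hearts, 2191, 2906 and 3064 in Control TAC hearts, 2705, 2987 and 4338 in cSirt5KO Sham hearts, and 2623, 3195 and 3624 in Control Sham hearts. The cSirt5KO TAC and Control TAC ranges of *Psmb4* overlapped, the difference was 0.41 ± 0.13 (limma adjusted p = 0.0582), or 0.26 without replicates 2 and 4 (adjusted p = 0.392), and TAC in Control hearts gave -0.22 ± 0.13 (adjusted p = 0.365).

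*Psma2* had 1921, 2279 and 2689 in cSirt5KO TAC hearts, 1711, 1866 and 1949 in Control TAC hearts, 1838, 2051 and 2233 in cSirt5KO Sham hearts, and 1912, 2096 and 2225 in Control Sham hearts, and the genotype difference after TAC was 0.29 ± 0.08 (limma adjusted p = 0.0225). *Psma3* had 1643, 2183 and 2719.5 in cSirt5KO TAC hearts, 1419, 1661 and 1828 in Control TAC hearts, 1663, 1793 and 2273 in cSirt5KO Sham hearts, and 1652, 1704 and 1781 in Control Sham hearts, with a difference of 0.37 ± 0.10 (limma adjusted p = 0.0331). In *Psma2* 5 and in *Psma3* 4 of the 6 cSirt5KO TAC hearts lay above all Control TAC hearts. Without replicates 2 and 4 the differences were 0.21 and 0.27 (limma adjusted p = 0.176 and 0.234). *Psma5* had 1267, 1657 and 1891 in cSirt5KO TAC hearts, 1167, 1362 and 1529 in Control TAC hearts, 1009, 1191 and 1635 in cSirt5KO Sham hearts, and 1049.8, 1202 and 1242 in Control Sham hearts. Its TAC difference in cSirt5KO hearts was 0.39 ± 0.10 (limma adjusted p = 0.0854), which did not pass in 9 of the 12 fits without 1 heart or without replicates 2 and 4 (0.31, adjusted p = 0.237), and that in Control hearts was 0.19 ± 0.10 (adjusted p = 0.295).

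*Psmb6* and *Psmb7* lay on the same side without passing. *Psmb6* had 1901, 2244 and 3692 in cSirt5KO TAC hearts, 1625, 1938 and 2094 in Control TAC hearts, 1934, 2232 and 2898 in cSirt5KO Sham hearts, and 1881, 2141 and 2411 in Control Sham hearts, with a genotype difference after TAC of 0.34 ± 0.12 (limma adjusted p = 0.106). *Psmb7* had 3985, 4351 and 5279 in cSirt5KO TAC hearts, 3476, 3868 and 4229 in Control TAC hearts, 3633, 4238 and 4568 in cSirt5KO Sham hearts, and 4052, 4207 and 4704 in Control Sham hearts, with 0.20 ± 0.07 (limma adjusted p = 0.11). In both genes the highest of all 24 hearts was the library labelled cSirt5KO TAC replicate 4. The beta subunit *Psmb2* had 910.2, 1374 and 2105 in cSirt5KO TAC hearts, 1129.9, 1330.0 and 1457 in Control TAC hearts, 1265, 1419 and 1789 in cSirt5KO Sham hearts, and 1344, 1510.2 and 1588 in Control Sham hearts, the lowest core difference for TAC in cSirt5KO hearts at -0.05 (limma adjusted p = 0.906). The alpha subunit *Psma1* had 2316, 2625 and 2914 in cSirt5KO TAC hearts, 1971, 2471 and 2533 in Control TAC hearts, 1999, 2313 and 2425 in cSirt5KO Sham hearts, and 2220.4, 2553 and 2662 in Control Sham hearts, the lowest for genotype after Sham at -0.14 (limma adjusted p = 0.403). The groups of both genes overlapped in these comparisons.

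The library labelled cSirt5KO TAC replicate 4, with *Sirt5* in the Control range, held the highest of 24 values for 27 of the 50 genes and for 11 of the 14 core genes. Without it 5 of the 50 passed for genotype after TAC in place of 8, and without replicates 2 and 4, whose *Sirt5* goes against their label, 1 passed (*Psme1*), the core median was 0.15 and 13 of 14 core genes were positive. Leaving out cSirt5KO TAC replicate 5 gave 16 and replicate 6 gave 13. Within the first library set 0 passed by limma and within the second 16, with core medians of 0.21 and 0.31, and DESeq2 called 19 and edgeR 9 of the 50. The shares of all genes that passed in these alternative fits are not given here. The counts therefore do not tell a change of the members from a change over all genes. *Psmb5* did not pass in 4 and *Psmb4* in 5 of the 12 fits without 1 heart. Short transcripts as a class were higher in the same comparison: 2191 genes with a mean of at least 100 and a canonical transcript under 2 kb had a median of 0.22, the 4694 genes of 4 kb and over had -0.15, and the 26 members under 2 kb, 9 of the 14 core genes among them, had 0.22. The part of transcript length in the core difference was not tested.

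**Figure D4:**
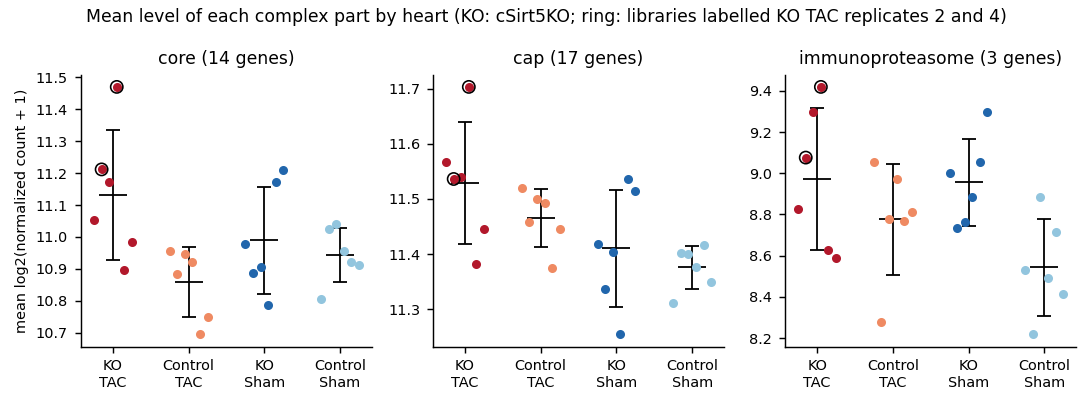
Mean log2(normalized count + 1) over the 14 core, 17 cap and 3 immunoproteasome genes in each heart, with the group mean and SD of 6 hearts as bars and rings on the libraries labelled cSirt5KO TAC replicates 2 and 4. Core means were 11.13 ± 0.20 in cSirt5KO TAC and 10.86 ± 0.11 in Control TAC hearts, and the highest core, cap and immunoproteasome means of all 24 hearts lay in replicate 4.

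Cap genes had medians within 0.1 of 0, and those that passed went in both directions. For TAC in Control hearts 13 of the 17 were positive with a median of 0.08, and 2 passed as higher, *Psmd8* (RPN12) and *Psmd11* (RPN6), both subunits of the lid. For TAC in cSirt5KO hearts 16 of 17 were positive with a median of 0.08, and *Psmd8* passed. These values include the libraries labelled cSirt5KO TAC whose *Sirt5* goes against that label. Cap medians and counts of positive genes without these libraries are not given here. Over all 50 genes the median for TAC in cSirt5KO hearts was 0.08 with these libraries and 0.02 without them. The cap genes had medians of 0.06 for genotype after either surgery, none passed after Sham, and after TAC *Psmd11* was lower in cSirt5KO than in Control hearts. The 6 ATPases of the base, which unfold the substrate, passed in none of the comparisons.

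*Psmd8* (chr7:28873613-28880126) had 2468, 2739 and 3084 in cSirt5KO TAC hearts, 2475, 2741 and 3113 in Control TAC hearts, 1883, 2171 and 2550.2 in cSirt5KO Sham hearts, and 1934, 2086 and 2285 in Control Sham hearts. Every Control TAC heart lay above every Control Sham heart, and the cSirt5KO groups overlapped in their outer hearts. After TAC *Psmd8* rose by 0.40 ± 0.08 in Control hearts (limma adjusted p = 0.00191) and by 0.31 ± 0.08 in cSirt5KO hearts (adjusted p = 0.0799), with a difference between these effects of -0.08 ± 0.12 (adjusted p = 0.869). The call in cSirt5KO hearts did not hold in 8 of the 12 fits without 1 heart, within either library set or without replicates 2 and 4 (0.30, limma adjusted p = 0.144). In Control hearts all 12 omissions left an adjusted p between 0.00129 and 0.00765.

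*Psmd11*, a lid subunit that bridges cap and core, had 2064, 2243 and 2337 in cSirt5KO TAC hearts, 2431, 2586 and 2794 in Control TAC hearts, 1991, 2187 and 2379 in cSirt5KO Sham hearts, and 2154, 2265 and 2449 in Control Sham hearts. All 6 cSirt5KO TAC hearts lay below all 6 Control TAC hearts, and 5.06% of all genes passed as lower in this comparison. The genotype difference after TAC was -0.23 ± 0.07 (limma adjusted p = 0.0336), or -0.23 without replicates 2 and 4 (adjusted p = 0.11), and TAC in Control hearts gave 0.19 ± 0.07 (adjusted p = 0.0685), a call that 6 of the 12 omissions of a heart ended. *Psmd14*, the deubiquitinase of the lid, had 1378, 1649 and 1847 in cSirt5KO TAC hearts, 1209.9, 1338 and 1464 in Control TAC hearts, 1041, 1308 and 1544 in cSirt5KO Sham hearts, and 982, 1207 and 1348 in Control Sham hearts, with a TAC difference in cSirt5KO hearts of 0.32 ± 0.10 (limma adjusted p = 0.142). The highest cSirt5KO TAC hearts of *Psmd14* lay above the cSirt5KO Sham range, with overlap below. *Psmd1*, a scaffold of the base, had 2909, 3016 and 3751 in cSirt5KO TAC hearts, 3132, 3565 and 3710.0 in Control TAC hearts, 2866, 3125 and 3228 in cSirt5KO Sham hearts, and 2679.7, 3236 and 3529 in Control Sham hearts, with a genotype difference after TAC of -0.16 ± 0.07 (limma adjusted p = 0.23). *Psmc6*, an ATPase, had 2351, 2923 and 3339 in cSirt5KO TAC hearts, 2608, 2854 and 2940.4 in Control TAC hearts, 2348, 2444 and 2825 in cSirt5KO Sham hearts, and 2526, 2761 and 2929 in Control Sham hearts, with -0.13 for genotype after Sham (limma adjusted p = 0.429).

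Among the activators, the PA28 pair *Psme1* (chr14:55815580-55818986) and *Psme2* (chr14:55824898-55828570), which form a heteromeric ring induced by interferon gamma and lie close together on chromosome 14, stood at both ends of the family, *Psme1* having the lowest log2 fold change of the 50 genes for TAC in Control hearts and the highest for genotype after TAC. *Psme1* had 1867, 2828 and 3313 in cSirt5KO TAC hearts, 1325, 1819 and 2014 in Control TAC hearts, 2599.8, 2979 and 4005 in cSirt5KO Sham hearts, and 2300.0, 2699 and 3005 in Control Sham hearts. Every Control TAC heart lay below every Control Sham heart, while the cSirt5KO groups overlapped. In Control hearts *Psme1* fell after TAC, at -0.62 ± 0.13 (within the library sets -0.88 and -0.49) or 0.652-fold (limma adjusted p = 0.00212), in cSirt5KO hearts the difference was -0.22 ± 0.13 (adjusted p = 0.53), and the difference of the 2 effects was 0.40 ± 0.19 (adjusted p = 0.48). After TAC *Psme1* was higher by 0.60 ± 0.13, or 1.52-fold, in cSirt5KO than in Control hearts (limma adjusted p = 0.00832), and it still passed without replicates 2 and 4 (0.47, adjusted p = 0.0892). It was 0.60 within the first library set (limma adjusted p = 0.319, 2 hearts against 2) and 0.60 within the second (adjusted p = 0.0381).

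*Psme2* had 1072, 1482 and 1746 in cSirt5KO TAC hearts, 889.5, 1028 and 1152 in Control TAC hearts, 1085, 1455 and 1702 in cSirt5KO Sham hearts, and 1032, 1188 and 1354 in Control Sham hearts. Of the 6 cSirt5KO TAC hearts 5 lay above every Control TAC heart. After TAC it was higher by 0.47 ± 0.11 in cSirt5KO than in Control hearts (limma adjusted p = 0.0147), or 0.35 without replicates 2 and 4 (adjusted p = 0.14), and TAC in Control hearts gave -0.23 ± 0.11 (adjusted p = 0.234). Genotype after Sham gave 0.23 ± 0.11 for *Psme2* (limma adjusted p = 0.31) and 0.20 ± 0.13 for *Psme1* (adjusted p = 0.47). The log2 ratio of *Psme1* to *Psme2* within a library was 0.91 ± 0.09 in cSirt5KO TAC, 0.78 ± 0.17 in Control TAC, 1.14 ± 0.11 in cSirt5KO Sham and 1.16 ± 0.07 in Control Sham hearts (mean ± SD, n = 6), and Control TAC and Control Sham hearts did not overlap in it. Exons of *Psme1* overlap *Emc9* and those of *Psme2* overlap *Rnf31* on the other strand.

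**Figure D5:**
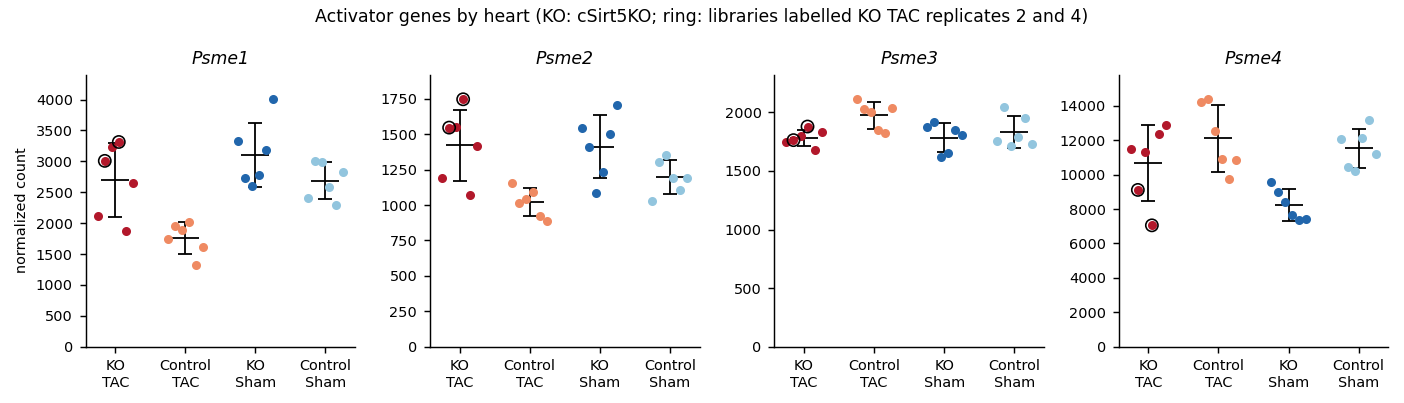
Normalized counts of *Psme1*, *Psme2*, *Psme3* and *Psme4* in each of 24 hearts, with group means and SD of 6 hearts as bars and rings on the libraries labelled cSirt5KO TAC replicates 2 and 4. *Psme1* reached at most 2014 in Control TAC hearts and at least 2300.0 in Control Sham hearts, and *Psme4* at most 9575 in cSirt5KO Sham hearts and at least 10196 in Control Sham hearts.

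*Psme4* (chr11:30721726-30830361), which encodes the large single-chain activator PA200, had 7051, 11382 and 12865 in cSirt5KO TAC hearts, 9726, 11721 and 14376 in Control TAC hearts, 7384, 8015 and 9575 in cSirt5KO Sham hearts, and 10196, 11620.1 and 13165 in Control Sham hearts. Every cSirt5KO Sham heart lay below every Control Sham heart. The genotype difference after Sham was -0.49 ± 0.12 (limma adjusted p = 0.045), -0.38 within the first library set (adjusted p = 0.503), -0.65 within the second (adjusted p = 0.0631) and -0.28 with animal-number series in the model (adjusted p = 0.63), and 4 of the 12 omissions of a heart ended the call. TAC in cSirt5KO hearts gave 0.35 ± 0.12 (limma adjusted p = 0.221), and 0.55 with an adjusted p of 0.0347 without replicates 2 and 4. Genotype after TAC gave -0.19 ± 0.12 (limma adjusted p = 0.42). Genes with a canonical transcript of 4 kb and over, as that of *Psme4*, had a median of -0.08 for genotype after Sham.

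*Psme3*, the nuclear homologue of the PA28 pair, had 1682, 1782 and 1879 in cSirt5KO TAC hearts, 1824, 2017 and 2112 in Control TAC hearts, 1616, 1829.7 and 1914 in cSirt5KO Sham hearts, and 1712, 1773 and 2045 in Control Sham hearts, and passed in none of the comparisons. *Psme2b*, a near-identical intronless copy of *Psme2* whose reads cannot be parted from it with certainty, had 34.8, 61.5 and 72.3 in cSirt5KO TAC hearts, 41.2, 53.7 and 75.9 in Control TAC hearts, 36.6, 44.5 and 55.9 in cSirt5KO Sham hearts, and 34.2, 39 and 53.2 in Control Sham hearts. *Psmf1*, which encodes the inhibitor PI31, had 429.9, 501 and 544 in cSirt5KO TAC hearts, 430.5, 491 and 538 in Control TAC hearts, 452, 514 and 593 in cSirt5KO Sham hearts, and 474, 504 and 617 in Control Sham hearts, the groups overlapping throughout.

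With replicates 2 and 4 included, the 7 assembly chaperones were all positive for genotype after TAC with a median of 0.23, against 0.00 for all genes. The highest values of *Psmg3* (110.8) and *Psmg4* (265.9) over all hearts lay in the library labelled cSirt5KO TAC replicate 4. The chaperone median and count of positive genes without replicates 2 and 4 are not given here. Of the 7 chaperones, 5 have a canonical transcript under 2 kb. Genes of that class with a mean of at least 100 had a median of 0.22 in this comparison. The part of transcript length in the chaperone difference was not tested. *Psmg2*, which encodes a partner in building the alpha ring, passed, with 585, 616 and 690.1 in cSirt5KO TAC hearts, 475, 513 and 595 in Control TAC hearts, 553, 593 and 709 in cSirt5KO Sham hearts, and 545, 569 and 715 in Control Sham hearts, and a genotype difference after TAC of 0.27 ± 0.08 (limma adjusted p = 0.0493), or 0.22 without replicates 2 and 4 (adjusted p = 0.255). None of the 7 passed in the other comparisons. Testis-type *Psma8* had 11.2, 18 and 46.1 in cSirt5KO TAC hearts, 24.5, 28.2 and 45.2 in Control TAC hearts, 8.15, 19.1 and 32.4 in cSirt5KO Sham hearts, and 15.8, 19 and 24.6 in Control Sham hearts and passed in none, and neither did *Psmc3ip* and *Psme3ip1*.

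The wider degradation machinery was read from lists chosen with earlier results of these data known. Of 15 proteasome partners without a Psm name, *Sem1*, the smallest cap subunit, was higher (0.84, limma adjusted p = 0.0143) and the shuttle factor *Ubqln4* lower (-0.26, adjusted p = 0.0192) in cSirt5KO than in Control hearts after TAC, and after TAC in Control hearts *Ubqln4* rose (0.19) and *Zfand5* fell (-0.25). Of 14 genes in the control of proteasome transcription, *Nfe2l1*, whose product NRF1 restores proteasome synthesis when the complex is inhibited, was lower in cSirt5KO than in Control hearts after TAC (-0.24, limma adjusted p = 0.0613). In Control hearts TAC was followed by higher *Maff* (0.82) and *Mafk* (0.80), small partners of NRF1, and lower *Nfyc* (-0.42), a CCAAT-binding subunit. The medians of the partner and the control list were both -0.07 for genotype after TAC, against 0.00 for all genes, and 0.03 and -0.01 for TAC in Control hearts, against 0.01.

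Among the genes for ubiquitin and its activating enzymes, the ubiquitin-ribosome fusion gene *Rps27a* was higher in cSirt5KO than in Control hearts after TAC (0.50, limma adjusted p = 0.0196). Of 15 muscle ubiquitin ligases, *Stub1* was higher (0.42) and *Fbxo40* (-0.63) and *Huwe1* (-0.42) lower in that comparison (list median -0.17), while *Fbxo40* rose after TAC in Control hearts (0.57, limma adjusted p = 0.000729). None of these 4 lists held a gene that passed for TAC in cSirt5KO hearts or for genotype after Sham. For genotype after TAC, genes with a mean of at least 100 had a median of 0.22 under 2 kb and -0.15 at 4 kb and over. The part of transcript length in the values of these lists was not tested.

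Other cell type markers moved beside these results. Of 10 cardiomyocyte markers 4 were lower after TAC in Control hearts, and between genotypes *Ryr2* was lower after Sham, where 5 of the list were positive and 5 negative with a median of 0.03, and *Tnni3* was higher after TAC in cSirt5KO hearts, where 8 were positive with a median of 0.26. Of 5 endothelial markers *Kdr* was lower in cSirt5KO hearts after Sham and after TAC and *Cdh5* after TAC, of 5 fibroblast markers 2 were higher after TAC in Control hearts, and of 7 atrial markers all were positive and 2 passed (*Nppa* and *Stard10*) in cSirt5KO against Control hearts after Sham. For TAC in Control hearts *Nppa* was higher (3.74) and *Stard10* lower (-0.97), and *Stard10* was lower for TAC in cSirt5KO hearts (-0.84) and higher for genotype after TAC (0.86). The summed atrial markers ran over 34396 to 104921 in cSirt5KO TAC, 20908 to 137891 in Control TAC, 9229 to 59566 in cSirt5KO Sham and 2694 to 19469.5 in Control Sham hearts, and *Sln*, *Myl7* and *Bmp10* were at 0 in 10, 6 and 5 of the 24 hearts. A sum follows its most abundant genes, and the medians of the atrial list went the other way after TAC. They were -0.81 in Control hearts, with 3 positive and 4 negative, and -1.89 in cSirt5KO hearts, with 1 positive and 6 negative. The part of cell composition in the values of the proteasome genes was not tested.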

How the data were processed

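Whole-heart RNA from 24 mice was sequenced from directional libraries. According to the paper and the labels, reads were trimmed with Trim Galore and aligned with STAR to GRCm39 (mm39). The counting program is not given in the sources used here. The deposited values are read counts the authors divided by DESeq2 size factors, a normalized signal per gene, and whole reads were recovered for 100% of values (tolerance 1e-06). The same table holds 14 columns of the authors' DESeq2 comparisons of TAC with Sham (mean signal, fold-change and Wald score, log2 fold change, p-value), which were not used.

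Log2(normalized count + 1) of all 24239 genes was fitted with limma 3.58.1 (trend; R 4.3.3) in one model of 4 groups, with Benjamini-Hochberg adjustment over all genes. DESeq2 1.42.0 and edgeR 4.0.16 on the recovered reads, a mean of at least 10, a pseudocount of 10, TMM log2 CPM, equal library means, covariates, library sets (boundary -8.94 in the log2 opposite-strand ratio over 190 gene pairs), omission of hearts and a replicate block were alternatives. The labels say only that replicates are separate samples, so p-values measure the spread between these samples. The scripts were tested on simulated data.

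The genes and lists were chosen with earlier results of these data known. Values are given for the immunoproteasome genes, their counterparts, the activators, *Psmf1*, *Psma8*, members that passed, and, among members with a mean of at least 100, those at either end of each comparison (3 and 3 by log2 fold change). Exons of 21 members are overlapped by a gene on the other strand. Gene coordinates are those of the table, and only 3 members have the same in GENCODE vM39. A result of the ubiquitin gene list is not reported here.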

Additional observations from a re-analysis of the deposited data

Results flagged for a closer look

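Over the 25 genes whose values are given in all 4 groups, 100 groups of 6 hearts were searched for a heart far from the other 5, where chance alone picks about 1 in 20 groups, and 4 were found. *Psmb10* was 2177 in the library labelled cSirt5KO TAC replicate 4, against 1172 to 1535 in the other cSirt5KO TAC hearts. *Psmb7* was 5279 in the same library, against 3985 to 4462. *Psmg2* was 715 in Control Sham replicate 2, against 545 to 591 in the other Control Sham hearts. *Psma8* was 45.2 in Control TAC replicate 1, against 24.5 to 32.0 in the other Control TAC hearts.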

How the results depend on the processing

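Counts of genes that passed are given first at adjusted p alone and then with the fold limit, for the alternatives that moved them by over 1.5 times. They are counts among the 50 genes. The shares of all genes that passed in each alternative are not given here, so a moved count is not a result about the members alone. For TAC in Control hearts (4 and 1 of 50), the 2 groups alone gave 12 and 2, library set 1 gave 2 genes at adjusted p alone, and animal-number series as a covariate and set 2 gave 0 with the fold limit. For TAC in cSirt5KO hearts (2 and 0), DESeq2 gave 4, series, set and replicate block as terms gave 1 each, the 2 groups alone and each set gave 0, and 1 passed without the libraries labelled cSirt5KO TAC replicates 2 and 4. For genotype after Sham (2 and 1), series and set 1 gave 0 and 0, and set 2 gave 9 and 3. For genotype after TAC (8 and 1), DESeq2 gave 19 and 2, the 2 groups alone 5 at adjusted p alone, the set covariate 16, a mean of at least 10 gave 13, TMM and edgeR 2 with the fold limit, set 1 gave 0 and 0, set 2 gave 16 and 3, and without the libraries labelled cSirt5KO TAC replicates 2 and 4 there were 1 and 0. The interaction (0 and 0) gave 1 with DESeq2. Leaving out 1 heart at a time gave 3 to 4 and 0 to 1 for TAC in Control hearts (0 without Control Sham replicate 2 or 3 or Control TAC replicate 5), 0 to 3 and 0 to 0 for TAC in cSirt5KO hearts, 1 to 2 and 0 to 1 for genotype after Sham, 5 to 16 and 0 to 2 for genotype after TAC, and 0 to 0 for the interaction. The replicate block changed no other count, and the labels' replicate numbers were not taken as pairs, since the deviations of 36 same-numbered pairs correlated at -0.43 to 0.47 and 10 pairs exceeded 0.1. Uncalled differences, from -0.28 to 0.22, took the other sign, on the log2 scale, as follows. Within set 1, *Psmb2* was 0.14 and *Psmb8* -0.22 for TAC in cSirt5KO hearts, *Psmc6* 0.0018 for genotype after Sham, and *Psmb8* -0.17, *Psmb9* -0.41 and *Psme4* 0.30 for genotype after TAC, with *Psme2* -0.083 for TAC in cSirt5KO hearts. Within set 2, *Psmb8* was -0.026 and *Psmb9* -0.036 for TAC in Control hearts, *Psmb10* -0.0069, *Psmb8* -0.035 and *Psme2* -0.10 for TAC in cSirt5KO hearts, and *Psmb9* 0.0071 for the interaction. Without replicates 2 and 4 *Psmb8* was -0.11 and *Psme2* -0.11 for TAC in cSirt5KO hearts, and *Psmb9* -0.070 and *Psme4* 0.00037 for genotype after TAC. With set as a covariate *Psmb8* was -0.079 and *Psme2* -0.067, with series *Psme2* was -0.12, and with edgeR *Psmb2* was 0.0011 for TAC in cSirt5KO hearts, while *Psma1* with series was 0.040 for genotype after Sham. Over single omissions *Psmb2* ran over -0.17 to 0.067, *Psmb8* -0.057 to 0.12 and *Psme2* -0.068 to 0.082 for TAC in cSirt5KO hearts, *Psmb8* -0.0017 to 0.24 and *Psmb9* -0.057 to 0.20 for TAC in Control hearts, and *Psmb9* -0.055 to 0.15 for genotype after TAC. The cause of these moves was not tested. Fits within set 1 rest on as few as 2 hearts against 2.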
